A study of Homo sapiens with 8 samples.

Results

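ATF4, the transcription factor at the centre of the integrated stress response, was followed together with 9 genes that act with it or under it in HCT116 cells after 2 knockdowns, of TFAP2C and of UBA2. The 10 members were ATF4, its relatives and partners ATF3, ATF5, DDIT3 and CEBPB, and the effectors CHAC1, TRIB3, DDIT4, SESN2 and PPP1R15A, matched by symbol in both tables of read counts per gene. They were chosen from the pathway with their measured changes in the UBA2 knockdown in view, so their values in that contrast are given as a description, and calls counted there do not test the members. All 10 members were found among the 42125 genes listed in the TFAP2C table and among the 23393 listed in the UBA2 table, and all 10 passed the filter on low counts, which left 14991 and 13381 genes.

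The 8 libraries were poly(A) RNA-seq of HCT116, a human colorectal cancer cell line, in 4 groups of 2 replicates. In all 4 groups, controls included, the cells stably carried a Tet-On shRNA against SAE2, another name of UBA2, and were grown in serum approved for Tet systems. In the TFAP2C experiment the cells received control siRNA or TFAP2C siRNA for 48 h. In the UBA2 experiment they received DMSO, in columns headed as without Dox, or doxycycline at 1 µg/mL to induce the shRNA, each for 5 days. TFAP2C is an AP-2 transcription factor, and UBA2 is a subunit of the enzyme that activates SUMO. All libraries came from 1 cell line, and separate cultures are not stated for the replicates, so the errors and p-values measure the spread between these libraries, which may be technical. In bulk RNA, more RNA per cell and more cells expressing a gene cannot be told apart.

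In the integrated stress response, kinases that sense amino acid shortage, endoplasmic reticulum (ER) stress, haem shortage or double-stranded RNA phosphorylate the initiation factor eIF2. General translation then falls, while the ATF4 mRNA, whose upstream open reading frames hold back its translation in unstressed cells, is translated more. ATF4 binds DNA as a dimer, often with a C/EBP protein, at composite C/EBP-ATF elements, and induces amino acid transporters, amino acid synthesis enzymes, tRNA synthetases and the stress genes followed here. RNA-seq measures the mRNA and not the ATF4 protein, nor the phosphorylation of eIF2.

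Levels are given as CPM, the counts of a gene scaled to the TMM-adjusted total of its library. Total counts were 20785035 to 24465109 per library in the TFAP2C table and 18213739 to 20607813 in the UBA2 table, and the members had 290 to 13124 and 152 to 6675 counts per library. TFAP2C mRNA fell from 19.7 ± 1.13 to 3.88 ± 0.591 CPM (SD, n = 2) after its siRNA (log2 fold change -2.34, SE 0.13, adjusted p = 7.67e-06 by edgeR's quasi-likelihood test). UBA2 mRNA was at 154 ± 10.8 CPM in the DMSO controls and 150.0 ± 4.39 CPM after doxycycline (log2 fold change -0.04, SE 0.06), so the mRNA did not bear out the label, and the doxycycline libraries are called here the libraries labelled UBA2 KD. The epithelial markers EPCAM, KRT8, KRT18, KRT19, CDH1 and CDX2 were present in every library, while CDX1 and VIL1 were at 0.15 CPM or less. The fibroblast genes COL1A2 and DCN had 0 counts in all 8 libraries, and COL1A1 was present at 14.8 to 48.2 CPM. The 2 tables were counted on different annotations, so levels are compared within a table.

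The DNA letters around the start sites are shown because the C/EBP-ATF element is the known point of contact between ATF4 and several of the members. A window of 1000 bases on each side of the start given in the UBA2 table (hg19) was searched on both strands for the element TGATGCAA, its relaxed form TGATGNAA (which includes the former), the CRE palindrome TGACGTCA and the CRE-like TGACGCAA. Upstream of the start, TGATGCAA was found in 3 of the 10 members, DDIT3, CHAC1 and DDIT4, against 1.73% of the 13274 tested genes that lie on reference chromosomes. TGATGNAA was found upstream of those 3 and of ATF3 and SESN2, 5 of 10 members against 9.95% of genes. TGACGTCA was found upstream of PPP1R15A (3.34% of genes), and TGACGCAA upstream of CHAC1 (1.27% of genes). The upstream matches are printed 5′ to 3′ on the strand of the gene, with the match in capitals. A match read as TTGCATCA or TTTCATCA lies on the opposite strand.
CHAC1 (chr15:41245449-41245478, plus strand, 176 bases before the start): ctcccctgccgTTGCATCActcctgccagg
CHAC1 (chr15:41245392-41245421, plus strand, 233 bases before the start): tgcccgccgccTGACGCAAtccgaggcgcc
DDIT3 (chr12:57914570-57914629, minus strand, 303 bases before the start): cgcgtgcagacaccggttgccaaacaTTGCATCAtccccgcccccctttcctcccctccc
DDIT4 (chr10:74032710-74032769, plus strand, 941 bases before the start): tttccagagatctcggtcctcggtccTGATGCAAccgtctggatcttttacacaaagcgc
SESN2 (chr1:28585707-28585766, plus strand, 230 bases before the start): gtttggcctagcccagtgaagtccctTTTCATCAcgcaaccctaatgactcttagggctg
ATF3 (chr1:212738532-212738591, plus strand, 118 bases before the start): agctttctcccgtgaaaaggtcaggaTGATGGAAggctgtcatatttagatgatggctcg
PPP1R15A (chr19:49375609-49375638, plus strand, 29 bases before the start): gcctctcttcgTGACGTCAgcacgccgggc

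In GENCODE v44 lifted to GRCh37, the CHAC1 and PPP1R15A matches lie in a UTR of another transcript of the gene, and the ATF3 start used by the table is the distal one of that gene. Downstream of the start, TGATGCAA was found in DDIT3, TRIB3 and SESN2, 3 of 10 members against 1.59% of genes, and TGATGNAA in the same 3 members against 7.68%. Neither TGACGTCA (1.36% of genes) nor TGACGCAA (0.746% of genes) was found downstream of any member. The matches in DDIT3 and SESN2 are intronic and start 822 and 618 bases after the first base of the gene. DDIT3 also held a relaxed match 878 bases after its first base. In TRIB3 the element occurred 3 times, 228, 261 and 294 bases after the first base, all in the 5′ UTR of the MANE Select transcript. The 3 windows of 30 bases around the TRIB3 elements were identical in 30 of 30 bases and lay 33 bases apart, so 1 of them is printed.
TRIB3 (chr20:361525-361554, plus strand, repeated at chr20:361558-361587 and chr20:361591-361620): ttagctccggtTTGCATCAcccggaccggg
DDIT3 (chr12:57913445-57913504, minus strand, intron): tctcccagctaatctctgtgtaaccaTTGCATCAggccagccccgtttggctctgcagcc
SESN2 (chr1:28586555-28586614, plus strand, intron): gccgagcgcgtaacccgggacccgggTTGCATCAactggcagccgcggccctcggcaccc

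No match was printed for ATF4, ATF5 or CEBPB, whose windows did not hold these letters. A match describes the sequence and was not tested as a binding site.

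Per length of transcript, in RPKM (the CPM divided by the transcript length in kilobases), the members spanned a wide range of levels in the controls. In the DMSO controls ATF4 itself was highest at 105 ± 3.57 RPKM (SD, n = 2), above DDIT4 at 61.2 ± 0.592. CEBPB at 29.5 ± 0.842 and TRIB3 at 28.6 ± 0.591 did not differ beyond their spread. Below them came ATF5 at 19.3 ± 0.516, PPP1R15A at 17.3 ± 0.277 and DDIT3 at 10.8 ± 0.267. SESN2 at 7.56 ± 0.537, CHAC1 at 5.67 ± 0.643 and ATF3 at 4.13 ± 0.355 closed the order.

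In the libraries labelled UBA2 KD the order of the RPKM levels was ATF4 at 171, DDIT4 at 134, TRIB3 at 72.8, CEBPB at 48.1, DDIT3 at 27.3, CHAC1 at 23.3, PPP1R15A at 20.1, ATF5 at 18.6, SESN2 at 17.8 and ATF3 at 5.79. ATF4 and DDIT4 kept the top places, while TRIB3 stood above CEBPB, and DDIT3 and CHAC1 stood above ATF5. In the control siRNA libraries DDIT4 was highest at 266 ± 36.7 RPKM, followed by ATF4 at 95.8 ± 7.03 and CEBPB at 60.7 ± 6.24, and ATF5 was lowest at 6.82 ± 0.369. Several neighbours in that table lay within their spread, such as TRIB3 at 19.6 ± 4.85 and PPP1R15A at 16.1 ± 1.34.

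**Figure D1:**
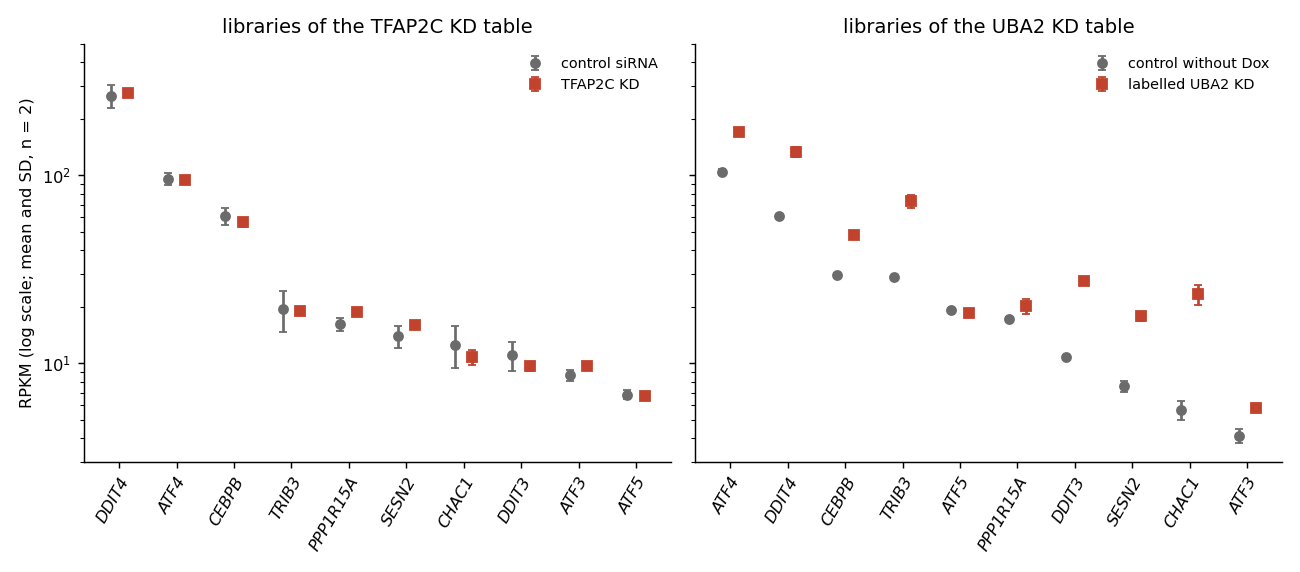
Levels of the 10 members per length of transcript in each table, on a log axis of RPKM, with points for the mean and bars for the SD of 2 libraries. ATF4 and DDIT4 take the top places in both tables, and in the UBA2 table the libraries labelled UBA2 KD lie above their controls for every member except ATF5.

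The UBA2 experiment compared 5 days of doxycycline, given to induce the shRNA against UBA2, with DMSO. No group received doxycycline without carrying the shRNA, so effects of the drug and of the shRNA cannot be told apart. Of the factors, ATF4 (chr22:39916569-39918691, hg19) had 217 and 227 CPM in the controls and 368 and 358.5 CPM in the libraries labelled UBA2 KD. The groups did not overlap, and the level was 1.64-fold that of the controls (95% CI 1.53 to 1.75, log2 fold change 0.71, SE 0.05). CEBPB, a C/EBP factor that pairs with ATF4, moved by nearly the same ratio. It had 60.8 and 63.3 CPM in the controls and 103.6 and 99.1 CPM in the libraries labelled UBA2 KD, a fold of 1.63 (95% CI 1.499 to 1.78).

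DDIT3 encodes CHOP, a C/EBP-family factor induced by ATF4 that takes part in stress-driven cell death, and it had the largest log2 fold change of the 5 factors. DDIT3 (chr12:57910371-57914300) had 12.4 and 12.9 CPM in the controls and 31.6 and 32.6 CPM in the libraries labelled UBA2 KD, which did not overlap with them. The fold was 2.53 (95% CI 2.23 to 2.88, log2 fold change 1.34, SE 0.09), the 9th highest log2 fold change of the 13381 genes. The 3′ end of DDIT3 overlaps the gene span of MARS on the opposite strand by 964 bases in this table, and MARS, a tRNA synthetase gene, went from 359 to 504 CPM (log2 fold change 0.49, SE 0.04). The strand setting of the counting is not given in the sources used here, and the part of MARS reads in the DDIT3 values was not tested.

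ATF3, a factor of the same family that feeds back on stress genes, moved less. It had 12.98 and 14.7 CPM in the controls and 19.9 and 19.0 CPM in the libraries labelled UBA2 KD, with no overlap and a fold of 1.40 (95% CI 1.22 to 1.62). ATF5, the closest relative of ATF4, had 46.6 and 44.9 CPM in the controls and 44.3 and 43.8 CPM in the libraries labelled UBA2 KD. These lay below both controls, but the interval of the log2 fold change, -0.20 to 0.09, included 0. ATF5 overlaps the gene span of NUP62, on the other strand, by 1030 bases, and NUP62 had a log2 fold change of -0.02 (SE 0.05).

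Among the effectors, CHAC1, which breaks down glutathione, had the highest log2 fold change of all 13381 genes. CHAC1 (chr15:41245636-41248717) had 8.12 and 9.54 CPM in the controls and 39.4 and 33.2 CPM in the libraries labelled UBA2 KD. The lower of the latter was well above both controls, and the fold was 4.09 (95% CI 3.53 to 4.74, log2 fold change 2.03, SE 0.11). CHAC1 was also the member with the second lowest level per length in the controls.

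TRIB3, a pseudokinase that binds ATF4 and AKT and restrains both, carried the 3 repeated elements shown above. TRIB3 (chr20:361308-378203) had 82.7 and 80.3 CPM in the controls and 219 and 195 CPM in the libraries labelled UBA2 KD, a fold of 2.54 (95% CI 2.34 to 2.76) and the 8th highest log2 fold change. The groups did not overlap.

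DDIT4 (also REDD1) and SESN2 both restrain the growth kinase complex mTORC1, DDIT4 through the TSC complex and SESN2 as a leucine sensor bound to GATOR2. SESN2 (chr1:28585963-28609002) had 25.3 and 27.9 CPM in the controls and 65.2 and 60.05 CPM in the libraries labelled UBA2 KD, a fold of 2.35 (95% CI 2.11 to 2.61) that ranked 10th. DDIT4 (chr10:74033677-74035797) had 108 and 106 CPM in the controls and 244 and 224 CPM in the libraries labelled UBA2 KD, a fold of 2.19 (95% CI 2.03 to 2.36) that ranked 15th. Neither gene's groups overlapped, and both folds exceeded that of ATF4 itself.

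PPP1R15A encodes GADD34, which directs protein phosphatase 1 to eIF2 and so ends the response. PPP1R15A (chr19:49375649-49379319) had 41.6 and 40.7 CPM in the controls and 50.9 and 44.9 CPM in the libraries labelled UBA2 KD, a fold of 1.16 (95% CI 1.05 to 1.29). Both lay above both controls, but the gene ranked 1244th, and it was the effector with the smallest fold.

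**Figure D2:**
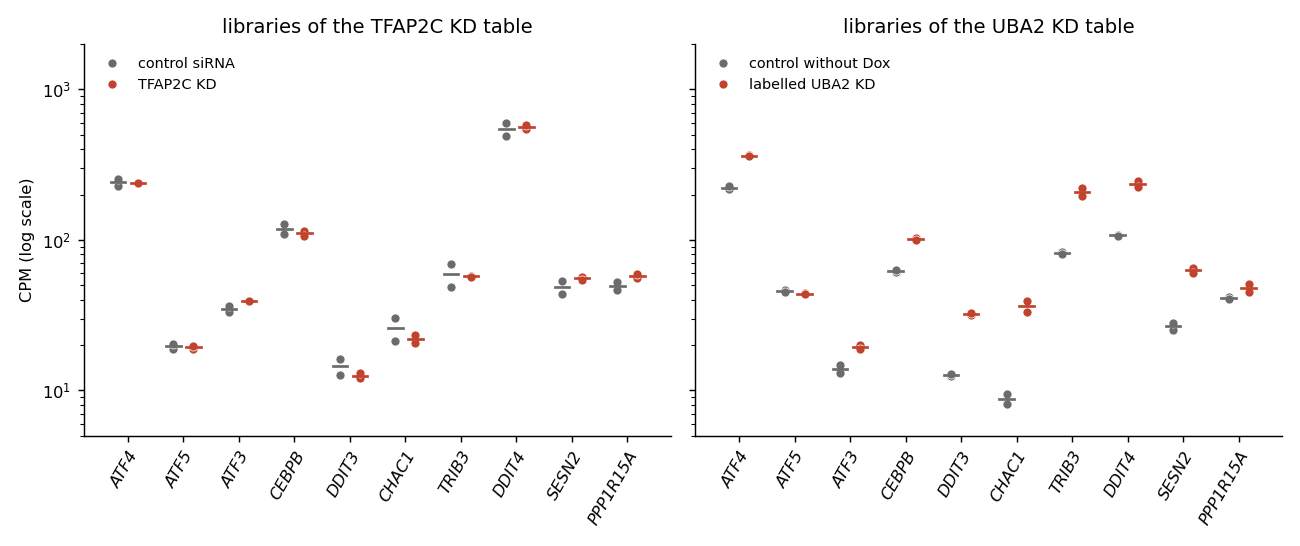
CPM of each member in each of the 8 libraries, in 1 panel per table, on a log axis of CPM, with 1 point per library and a line at the mean of 2. CHAC1, DDIT3, TRIB3, SESN2 and DDIT4 separate widely in the UBA2 experiment (CHAC1 8.12 and 9.54 against 39.4 and 33.2 CPM), while the siRNA groups lie close together.

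Over the 10 members, 8 were past an adjusted p of 0.05 as higher in the libraries labelled UBA2 KD, 0 as lower, and ATF5 and PPP1R15A were not past it. Over all genes 9.98% were past it in either direction and 5.52% as higher, and since the members were chosen on this contrast nothing is read from the difference. Both knockdown libraries were above both controls for 9 members (25.5% of all genes) and below both for 1, ATF5 (25.8% of all genes). The fold was at least 2 for 5 members, CHAC1, TRIB3, DDIT3, SESN2 and DDIT4. The median log2 fold change of the members was 0.92, and that of all genes was 0.00 to 2 decimals. The number past an adjusted p of 0.05 was 9, with PPP1R15A added, without the filter on low counts and without the second doxycycline replicate, where its log2 fold change was 0.31.

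TFAP2C siRNA, a separate experiment in the same cells, was used to ask what the loss of that transcription factor does to the same genes. Its contrast did not lead to the choice of the members, though they were chosen with earlier results of its libraries known. None of the 10 members passed an adjusted p of 0.05 in edgeR's quasi-likelihood test, where 0.74% of the 14991 genes passed in either direction and 0.26% as higher. The lowest adjusted p of a member was 0.304 in edgeR, 1 of the 10 had an unadjusted p under 0.05 (12.6% of all genes), and DESeq2's Wald test also called 0. The median log2 fold change of the members was -0.02, beside -0.00 for all genes.

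ATF4 had 228 and 253 CPM with control siRNA and 238 and 240 CPM with TFAP2C siRNA. The latter lay between the controls, and the 95% interval of the log2 fold change was -0.16 to 0.15. CHAC1 had 21.3 and 30.4 CPM with control siRNA and 20.6 and 23.4 CPM with TFAP2C siRNA, which overlapped (log2 fold change -0.22, SE 0.14, adjusted p = 0.546 in edgeR). TRIB3 had 48.8 and 69.5 CPM with control siRNA, and both knockdown values, 57.5 and 57.0 CPM, fell between them. DDIT3, with 12.6 and 16.3 against 12.1 and 13.02 CPM, overlapped as well (log2 fold change -0.20, SE 0.13, adjusted p = 0.555 in edgeR). In this table the span of DDIT3 overlaps MBD6 as well as MARS on the other strand.

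Both libraries with TFAP2C siRNA lay above both controls for 3 members, ATF3, SESN2 and PPP1R15A (22.4% of all genes), and below both for 0 (22.4% of all genes). The groups overlapped for the other 7. PPP1R15A, the GADD34 gene, had 46.5 and 52.4 CPM with control siRNA and 55.8 and 59.3 CPM with TFAP2C siRNA (log2 fold change 0.22, SE 0.08). Its unadjusted p was 0.0225 and its adjusted p 0.304 in edgeR. SESN2 had 43.8 and 52.98 against 57.1 and 53.9 CPM (log2 fold change 0.20, SE 0.09, adjusted p = 0.411 in edgeR), and ATF3 had 33.3 and 36.4 against 39.3 and 39.2 CPM (log2 fold change 0.17, SE 0.08, adjusted p = 0.426 in edgeR).

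DDIT4 had 492 and 598 CPM with control siRNA and 547 and 577 CPM with TFAP2C siRNA, CEBPB had 109.9 and 127 against 115 and 106 CPM, and ATF5 had 18.9 and 20.4 against 18.8 and 19.9 CPM. All 3 overlapped, and their adjusted p in edgeR was 0.869, 0.647 and 0.942. Single libraries bore on these calls. Without replicate 1 of TFAP2C siRNA, PPP1R15A passed (log2 fold change 0.27, adjusted p = 0.0216 in edgeR), and without replicate 2, CHAC1 (-0.31, adjusted p = 0.0141 in edgeR) and SESN2 (0.25, adjusted p = 0.0118 in edgeR) passed. The fit without replicate 2 called 2825 genes, against 111 with all libraries.

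**Figure D3:**
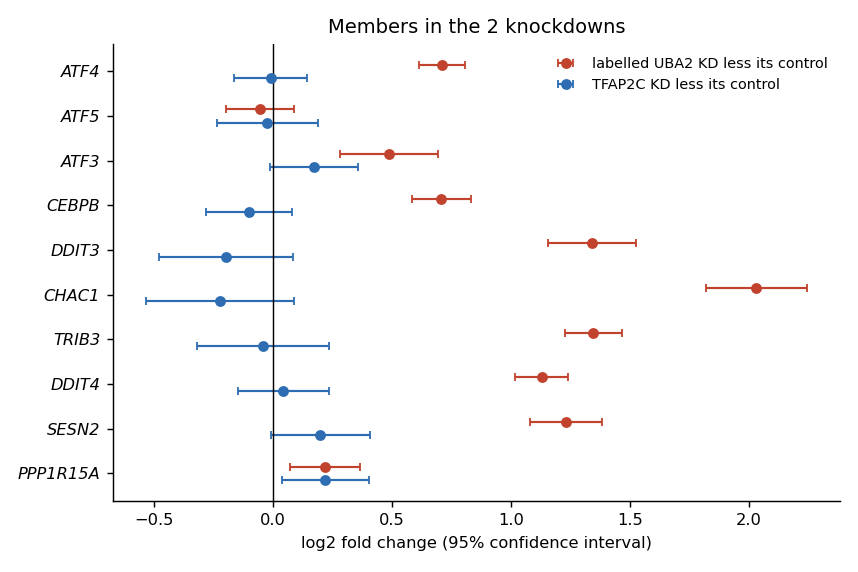
Log2 fold change of each member in both knockdowns against its own controls, with bars for the 95% confidence interval. CHAC1 lies at 2.03 in the libraries labelled UBA2 KD and at -0.22 with TFAP2C siRNA, whereas PPP1R15A lies at 0.22 in both.

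Set side by side, 8 of the 10 members had a larger log2 fold change after doxycycline than after TFAP2C siRNA. The first less the second was 2.26 for CHAC1 (SE 0.18), 1.54 for DDIT3 (SE 0.16), 1.39 for TRIB3 (SE 0.14), 1.09 for DDIT4 (SE 0.10) and 1.03 for SESN2 (SE 0.12). It was 0.81 for CEBPB (SE 0.10), 0.72 for ATF4 (SE 0.09) and 0.31 for ATF3 (SE 0.13). For ATF5 (-0.03, SE 0.12) and PPP1R15A (-0.00, SE 0.11) the difference was smaller than its error. These differences contain the contrast that chose the members and are given with no test. The experiments also differed in agent, duration and annotation, which cannot be told apart from the gene targeted.

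The lists of other genes of the pathway, written with earlier results of these data known, give the surroundings of the members and are no independent evidence of a direction. Over 4 lists of known ATF4 targets, 40 of 47 tested genes were past an adjusted p of 0.05 as higher in the libraries labelled UBA2 KD and 1 as lower. Each list's count in this contrast stands beside 9.98% of all genes called in either direction and 5.52% as higher. All 9 amino acid transporter genes were higher, led by SLC1A4 (log2 fold change 1.07, SE 0.09), a carrier of small neutral amino acids, and SLC6A9 (0.97, SE 0.11), a glycine transporter. The median of that list was 0.76. All 13 genes of tRNA charging and export were higher with a median of 0.52, led by SARS (0.67, SE 0.05) and CARS (0.60, SE 0.05), the seryl- and cysteinyl-tRNA synthetases.

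Of the 11 amino acid synthesis genes 8 were higher and 0 lower, led by ASNS (0.96, SE 0.04), which makes asparagine, and PSAT1 (0.86, SE 0.05), an enzyme of serine synthesis. Among 14 other stress targets 10 were higher, led by FAM129A (1.15, SE 0.08) and ADM2 (1.11, SE 0.12), and 1 was lower, KLHL24 (-0.39, SE 0.11).

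Upstream of ATF4, the list held 22 genes for the eIF2 kinases, eIF2 and its regulators. Beside 9.98% of all genes called in either direction, 2 of the 22 were higher and 1 was lower after doxycycline. These were EIF2S2 (0.31, SE 0.05), the beta subunit of eIF2, PPP1R15B (0.21, SE 0.05), the constitutive counterpart of PPP1R15A, and PPP1CC (-0.24, SE 0.05), a catalytic subunit of protein phosphatase 1. The 4 eIF2 kinase genes, named here after their values were seen, had log2 fold changes of 0.01 for EIF2AK1 (SE 0.05), -0.03 for EIF2AK2 (SE 0.06), -0.07 for EIF2AK3 (SE 0.09) and -0.02 for EIF2AK4 (SE 0.05).

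Of 7 paralogs, 1 was higher, PPP1R15B, and 2 were lower, SESN3 (-0.65, SE 0.15), another sestrin, and DDIT4L (-0.68, SE 0.17), the relative of DDIT4. CHAC2 (0.06, SE 0.11), TRIB1 (-0.10, SE 0.04), TRIB2 (-0.09, SE 0.08) and SESN1 (-0.29, SE 0.11), named after their values were seen, did not pass. The 3 called paralogs became 1 with DESeq2's Wald test, without DMSO replicate 2 and without doxycycline replicate 1. Of the 17 tested other factors of the CREB/ATF and C/EBP families, 3 were higher and 0 lower, namely JDP2 (0.98, SE 0.10), CEBPG (0.72, SE 0.05), a C/EBP partner of ATF4, and, named after its value was seen, ATF6 (0.36, SE 0.06). JDP2 and CEBPG are also counted among the other stress targets.

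Among neighbouring stress pathways, of 21 ER stress genes of the ATF6 and XBP1 branches, 4 were higher, with XBP1 (0.52, SE 0.06) and HERPUD1 (0.45, SE 0.07) in the lead, and 3 were lower, with SDF2L1 (-0.24, SE 0.07) and MANF (-0.21, SE 0.06) the lowest. HSPA5, the ER chaperone BiP, named after its value was seen, was among the 4 with a log2 fold change of 0.15 (SE 0.04). HERPUD1 is also in the list of other ATF4 stress targets. ATF6, another of the 4, is also counted among the CREB/ATF and C/EBP factors. The 7 calls became 4 with either DMSO replicate left out. Of 15 p53 targets 2 were higher, GDF15 (0.70, SE 0.06) and TNFRSF10B (0.33, SE 0.05), both of which are also in the list of other ATF4 stress targets, and 2 were lower, TP53INP1 (-0.32) and DDB2 (-0.36).

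Of the 14 tested HIF targets, 10 were lower with a list median of -0.49, and the lowest were ALDOC (-1.37, SE 0.10) and MIR210HG (-1.34, SE 0.20). The 1 that was higher was VEGFA (0.67, SE 0.06), which is also an ATF4 target. DESeq2's Wald test called 6 of these genes, against 11 in edgeR.

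With TFAP2C siRNA, 0 of the 48 tested genes of the 4 ATF4 target lists passed in either direction in edgeR, and their median log2 fold change was -0.00. At an unadjusted p under 0.05 there were 7 of these 48 genes, beside 12.6% of all genes, and DESeq2's Wald test called 0. The number of these genes past the threshold rose when either TFAP2C siRNA replicate was left out, as did the number over all genes. The eIF2 list (22 genes), the paralogs (7), the CREB/ATF and C/EBP factors (17) and the ER stress genes (21) also had 0 genes past the threshold in edgeR, with medians of 0.06, -0.12, 0.03 and 0.02. Their unadjusted p was under 0.05 for 0, 1, 2 and 2 genes, and DESeq2's Wald test called 0 in each. Each of these lists gained genes past the threshold without TFAP2C siRNA replicate 2, where more of all genes were called too. The genes of the lists that passed were the p53 targets CDKN1A (0.63, adjusted p = 0.0017 in edgeR), a cell cycle inhibitor, and BTG2 (0.36, adjusted p = 0.0368 in edgeR), and the HIF targets ADM (0.56, adjusted p = 0.0113 in edgeR) and SLC2A1 (0.47, adjusted p = 0.0105 in edgeR). These lists had 15 tested genes each, of which the other 13 did not pass, with list medians of 0.14 and 0.08. Their counts moved with single libraries. The p53 list had fewer calls with either control siRNA replicate left out and more with either TFAP2C siRNA replicate left out. The HIF list had fewer without control siRNA replicate 1 and more without TFAP2C siRNA replicate 1. Over all genes the calls moved the same way in each of these fits.

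**Figure D4:**
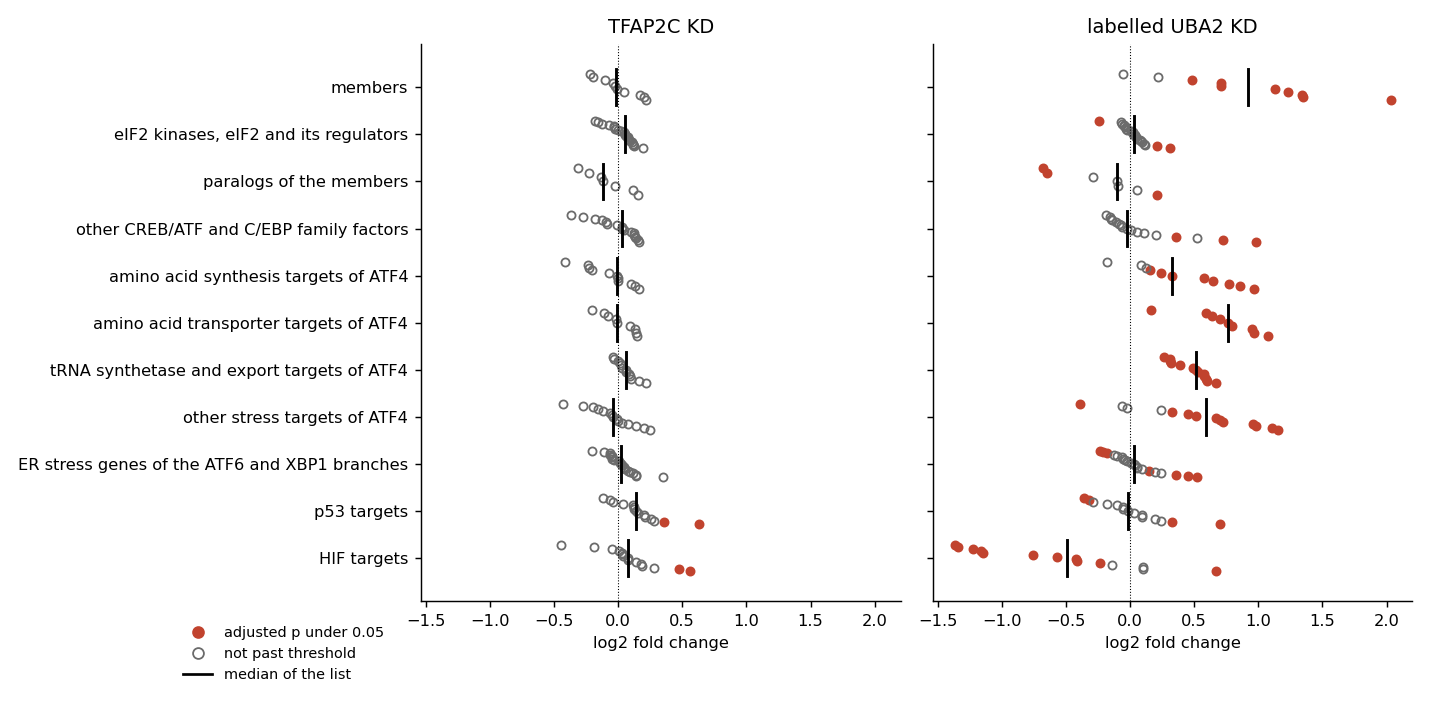
Log2 fold change of every tested gene in the lists for both knockdowns, 1 point per gene, filled where the adjusted p was under 0.05, with a bar at the median of the list. In the libraries labelled UBA2 KD the 4 ATF4 target lists lie to the right (medians 0.33, 0.76, 0.52 and 0.59) and the HIF targets to the left (median -0.49). With TFAP2C siRNA the medians run from -0.12 for the paralogs to 0.14 for the p53 targets.

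The members also differed between replicates of the control siRNA. All 10 were higher in replicate 2 than in replicate 1, by a median of 0.24 on the log2 CPM scale and by 0.11 to 0.51, with CHAC1 and TRIB3 at 0.51 and DDIT3 at 0.36. Over all genes the median was 0.00, and 50.4% were higher in replicate 2. Of the ATF4 target lists, 9 of 9 transporter genes, 9 of 11 synthesis genes, 11 of 13 tRNA genes and 13 of 15 other stress targets were higher in the same library. In the TFAP2C siRNA pair 6 of 10 members were higher in replicate 2 (median 0.04, 46.0% of all genes). In the DMSO pair it was 6 of 10 (median 0.05, 50.5% of all genes). In the pair labelled UBA2 KD it was 1 of 10 (median -0.09, 49.7% of all genes). In that pair 7 of 9 transporter, 8 of 11 synthesis, 8 of 13 tRNA and 10 of 14 other stress genes were also lower in replicate 2.

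The SD of a member reached 24.9% of its mean in the TFAP2C table, against 12.0% in the UBA2 table. Fold changes in the TFAP2C contrast moved with the control that was left out. Without control siRNA replicate 2, the log2 fold change of TRIB3 was 0.22 instead of -0.04 and that of CHAC1 0.04 instead of -0.22. Without control siRNA replicate 1 they were -0.28 and -0.46. As a mean chi-square per gene over sampling noise, the TFAP2C siRNA replicates differed by 9.09 and the control siRNA replicates by 2.64. How much each pair contributed to the errors was not tested.

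**Figure D5:**
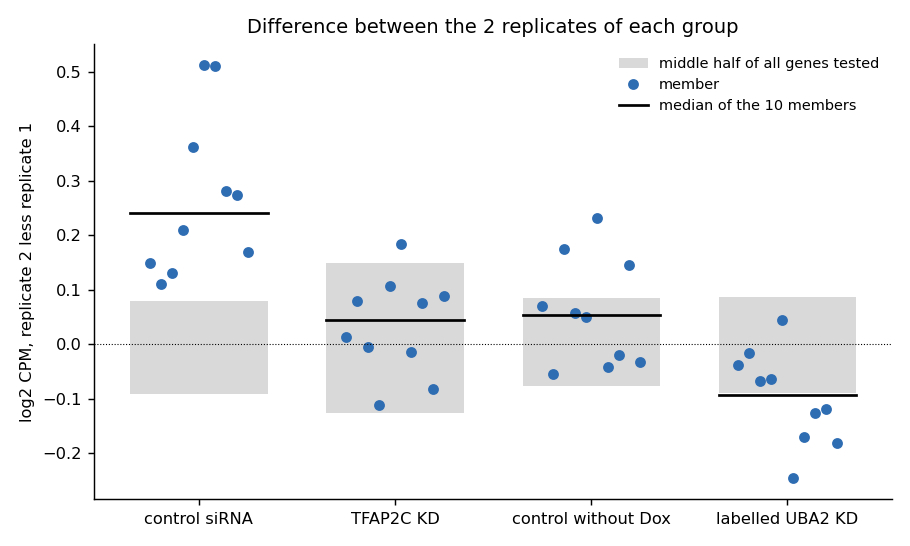
Difference in log2 CPM between replicate 2 and replicate 1 within each of the 4 groups, with a point per member, a line at the median of the 10 members and a grey box from the lower to the upper quartile of all tested genes. All 10 members lie above 0 in the control siRNA pair, with a median of 0.24, and all 10 lie above the box.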

How the data were processed

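RNA-seq of 8 HCT116 libraries was analysed from 2 deposited tables of read counts per gene. Per the labels and the study's methods, the authors aligned reads to hg19 with TopHat2 and counted them with HTSeq 0.9.1, and the deposited counts are not normalised. The positions in the TFAP2C table are those of GRCh38 and those in the UBA2 table of hg19. The strand setting of the counting is not given in the sources used here.

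Each table was fitted on its own in R 4.3.3 with edgeR 4.0.16 (filterByExpr, TMM scaling, quasi-likelihood test, 2 against 2 libraries, no block), and p-values were adjusted over all tested genes by Benjamini-Hochberg with a threshold of 0.05. The fit was tested on simulated data with the same spread for every gene and library, a setting the TFAP2C siRNA replicates did not share. CPM used library totals scaled by TMM (plain totals for the marker genes), and RPKM also the lengths in the tables. Replicates of each group differed by more than the sampling noise of counts. DESeq2 1.42.0, other scalings and filters, a replicate block and leaving out each library were alternatives. The members and lists were chosen with earlier results of these data known. Named genes are the members, the targeted genes and, from each list, up to 2 with the largest rise and up to 2 with the largest fall among called genes whose groups did not overlap, and others are marked where named. Start-site sequences were read from GRCh37 (the hg19 build) with GENCODE v44 lifted to it.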

Additional observations from a re-analysis of the deposited data

How the results depend on the processing

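With 2 libraries a group, single libraries decided the reach of the TFAP2C contrast. Its 111 called genes became 398 with no filter on low counts and 49 to 2825 when 1 library was left out, with 2825 without TFAP2C KD replicate 2, 537 without TFAP2C KD replicate 1, 74 without control siRNA replicate 2 and 49 without control siRNA replicate 1. Members called there ranged from 0 to 2, and their median log2 fold change from -0.0866 to 0.1205. It was above 0 without control siRNA replicate 2 (0.1205) and without TFAP2C KD replicate 1 (0.01). Leaving out 1 control siRNA or TFAP2C KD library in turn gave log2 fold changes of -0.0828 to 0.0579 for ATF4, -0.0792 to 0.0223 for ATF5, -0.462 to 0.0432 for CHAC1, -0.28 to 0.222 for TRIB3 and -0.0904 to 0.183 for DDIT4. The signs turned for DDIT4 without control siRNA replicate 1, for ATF5 without TFAP2C KD replicate 1 (0.0177), and for ATF4, ATF5, CHAC1 and TRIB3 without control siRNA replicate 2. The cause was not tested.

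With the replicate number as a block, 172 genes and 0 members were called in the TFAP2C contrast and 1308 genes and 8 members in the UBA2 contrast. The deviations of same-numbered replicates correlated at -0.14 in the TFAP2C table and 0.07 in the UBA2 table. These values cannot settle whether same-numbered replicates were paired, which the labels do not state. The block changed no call of a member. The p53 list went from 2 to 1 called gene under the block in the TFAP2C contrast. With the crossed pairing, chosen after seeing the data, 467 genes were called in the TFAP2C contrast.

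In the UBA2 contrast, 1336 genes were called, 673 with DESeq2's Wald test, and 833 to 1271 with 1 library left out, the 833 without replicate 2 of the controls. Scaling by library size alone gave 588 higher and 805 lower, against 738 and 598, and moved the median of all genes to -0.03. The members called were 8 or 9 and their median 0.88 to 0.97 with 1 library left out. Of 110 member values under alternatives in the TFAP2C contrast 101 kept direction and side of the threshold, and of 100 in the UBA2 contrast 98 did.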
